A study of Danio rerio with 4 samples.

Results

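SNAP25 (ENSDARG00000058117), STMN2 (ENSDARG00000033234) and cntn2 (ENSDARG00000000472) are 3 of the 32313 Ensembl genes measured in polysomal and total mRNA of zebrafish embryos (Danio rerio), and each marks a step of neuronal differentiation. They were chosen by their measured differences between eif3ha morphants and wild type: SNAP25 and STMN2 for a lower level in morphant polysomal mRNA, and cntn2 for a lower level in morphant total mRNA. Those differences are therefore given as descriptions, and nothing below is supported with them. The 4 groups were eif3ha morphants and wild-type embryos, each as polysomal mRNA (300 embryos) and as total mRNA (50 embryos), all whole embryos at about 24 hours after fertilization. Morphants carry an injected morpholino, a synthetic antisense molecule; the one used here targets eif3ha, a gene for the eIF3h subunit of the translation initiation complex eIF3. A polysome is an mRNA that carries several ribosomes. By its title, the study concerns transcripts that eIF3h brings to polysomes. The labels name neither the genetic background nor a control-morpholino group, so effects of injection and of eIF3h loss cannot be told apart. Each group is 1 library of pooled embryos, so no difference has a replicate check and no test between groups was possible.

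Neurons leave the cell cycle, extend axons and then assemble synapses, and the 3 genes serve different parts of that sequence. SNAP25 encodes a SNARE protein of the presynaptic membrane that, with its SNARE partners, among them synaptobrevin (VAMP), drives fusion of synaptic vesicles. STMN2, also known as SCG10, encodes a stathmin, a tubulin-binding protein that makes growth-cone microtubules dynamic. The product of cntn2, also known as TAG-1, is a contactin, an immunoglobulin-type adhesion protein held on the axon surface by a lipid anchor and used in axon guidance. In the zebrafish embryo at this age, the early neurons of brain and spinal cord are laying down their first axon tracts. The zebrafish genome holds many genes in duplicate. SNAP25 and STMN2 each occur as a pair of rows with the same symbol, and the symbols do not say which copy is which.

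Values are RPKM, reads normalized to gene model length and to mapped reads, so levels can be compared between genes. The RPKM values move in steps of a whole number of reads plus 1, from which the depth and the reads behind a gene were recovered: 22001383 mapped reads in morphant and 15769467 in wild-type polysomal mRNA, and 21021422 in morphant and 24939987 in wild-type total mRNA. Ratios are log2 of RPKM after adding 0.5, which understates differences of low genes. For the genes of interest the ratio of reads per mapped read is given too, with a 95% counting interval. These intervals cover counting error only and may be too narrow for the libraries. Of genes with 50 to 200 reads in a pair, 40.8% lay outside the counting range in the polysomal pair and 26.6% in the total pair. These shares mix differences between the conditions with those between libraries, which 1 library per group cannot separate. Genes are counted as higher or lower at 2-fold, among those with at least 3 RPKM in a library compared.

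A single row carries the symbol EIF3H (ENSDARG00000036116), at 7.60 RPKM in morphant and 6.33 RPKM in wild-type polysomal mRNA and 5.92 RPKM in morphant and 6.24 RPKM in wild-type total mRNA. A morpholino blocks translation or splicing and need not lower its mRNA, and the symbol does not say that this row is eif3ha, so it does not check the labels. Of markers of other cell types, 20 to 22 of 27 skeletal muscle rows reached 3 RPKM in a library, 4 to 9 of 14 lens rows, all 11 epidermal rows, 5 to 7 of 11 erythroid rows and 5 of 9 glial rows. Since 1 is added to the reads, a gene with no read is not listed at 0. The wild-type polysomal library stood apart for lens and muscle. The summed level of 14 lens rows was 59.7 RPKM in morphant and 258 in wild-type polysomal mRNA, against 37.3 and 35.2 RPKM in morphant and wild-type total mRNA, and that of 27 skeletal muscle rows was 7817 and 14855 RPKM in polysomal against 4252 and 2953 RPKM in total mRNA in the same order. Epidermal sums (11 rows) ran from 3636 to 6246 RPKM, erythroid sums (11 rows) from 1058 to 1816 RPKM and glial sums (9 rows) from 81.4 to 117 RPKM over the libraries.

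SNAP25 was high in wild-type polysomal mRNA and low in the other 3 libraries. Its level was 1.25 RPKM in morphant polysomal, 6.32 RPKM in wild-type polysomal, 1.38 RPKM in morphant total and 1.21 RPKM in wild-type total mRNA. Behind these values were 40, 147, 42 and 44 reads in the same order, on a recovered gene model of 1486 bases. The counting ranges of the other 3 libraries overlap each other, and that of wild-type polysomal mRNA, at 5.30 to 7.37 RPKM, lies above them.

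In polysomal mRNA, morphants over wild type gave a log2 ratio of -1.96 for SNAP25, and 84 of 8261 genes were lower still. On reads the ratio was -2.36 (95% counting interval -2.90 to -1.85), a 5.13-fold lower level in morphants. In total mRNA the read ratio was 0.18 (-0.47 to 0.82), a difference not detectable at this depth, and SNAP25 stayed below 3 RPKM in both total libraries. Polysome association, which subtracts the log2 ratio in total mRNA from that in polysomal mRNA, was -2.54 on reads (-3.33 to -1.75). It is given outside the set of genes counted for association, for which each total library and 1 polysomal library had to reach 3 RPKM.

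**Figure D1:**
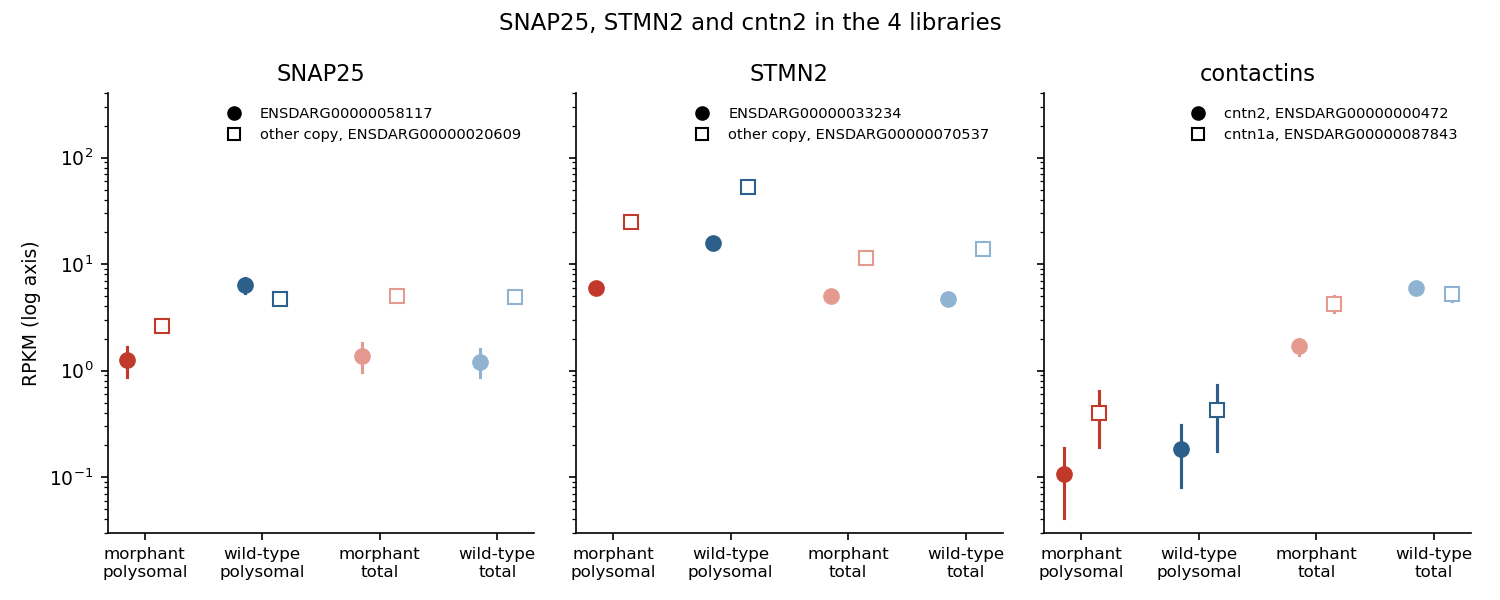
RPKM (log axis) of SNAP25, STMN2 and cntn2 (filled circles) and of a related row for each (open squares) in the 4 libraries; bars are 95% counting intervals. SNAP25 and STMN2 stand highest in wild-type polysomal mRNA, at 6.32 and 16.0 RPKM, and cntn2 in wild-type total mRNA, at 5.99 RPKM.

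The other SNAP25 row (ENSDARG00000020609) had a flatter profile. It stood at 2.63 RPKM in morphant and 4.68 RPKM in wild-type polysomal mRNA, and at 5.01 RPKM in morphant and 4.94 RPKM in wild-type total mRNA. Its polysomal read ratio was -0.83 (-1.03 to -0.64) and its total read ratio 0.02 (-0.13 to 0.17), so it too was lower in morphant polysomes without a detectable difference in total mRNA. ENSDARG00000058117 made up 32.3% of the RPKM summed over both copies in morphant and 57.4% in wild-type polysomal mRNA, against 21.6% and 19.7% in morphant and wild-type total mRNA. The copy that is the minor part of SNAP25 mRNA in 3 libraries was thus the larger part in wild-type polysomes. How reads that match both copies were assigned is not given in the sources used here, so the split between copies is uncertain. Reads of both copies together were 423 in morphant and 636 in wild-type polysomal mRNA, a read ratio of -1.07 (-1.25 to -0.89), and 740 in morphant and 861 in wild-type total mRNA, a ratio of 0.03 (-0.12 to 0.17).

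Relatives of SNAP25 that serve fusion outside the synapse differed less. The widely expressed homologue snap23.1 (ENSDARG00000012874) stood at 11.6 RPKM in morphant and 7.89 RPKM in wild-type polysomal mRNA, a log2 ratio of 0.52, and SNAP29 (ENSDARG00000038518) had a log2 ratio of -0.25. Of 6 rows of this family, 4 were above the floor in polysomal mRNA. SNAP25 (ENSDARG00000058117) was the single row at least 2-fold lower, where 4.12% of all genes were. It was chosen for this difference and passed the floor through the wild-type library alone. That its relatives differed less is therefore not read as a result.

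STMN2, like SNAP25, was highest in wild-type polysomal mRNA, at a higher level. Its level was 6.01 RPKM in morphant polysomal, 16.0 RPKM in wild-type polysomal, 4.99 RPKM in morphant total and 4.73 RPKM in wild-type total mRNA, from 418, 796, 331 and 373 reads. Wild-type polysomal mRNA again stood above the other 3 libraries. The polysomal log2 ratio was -1.34, with 172 of 8261 genes lower, and on reads -1.41 (-1.58 to -1.24), a 2.66-fold lower level in morphants. The total read ratio was 0.07 (-0.14 to 0.29). STMN2 was the only gene of the 3 with an association value above the floor: -1.41, with 96 of 7546 genes lower.

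The other STMN2 row (ENSDARG00000070537) was the more abundant, at 25.1 RPKM in morphant and 53.5 RPKM in wild-type polysomal mRNA and at 11.4 RPKM in morphant and 14.0 RPKM in wild-type total mRNA. It shared the direction in polysomal mRNA, with a read ratio of -1.09 (-1.18 to -1.01), and was also lower in total mRNA, at -0.29 (-0.42 to -0.16). The share of ENSDARG00000033234 in the RPKM of both copies varied from 19.4% in morphant polysomal to 30.4% in morphant total mRNA. Reads of both copies together gave a polysomal ratio of -1.16 (-1.24 to -1.08) and a total ratio of -0.19 (-0.30 to -0.08).

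All 7 stathmin rows were above the floor and below 0 in polysomal mRNA, with a median log2 ratio of -0.99, and 3 of them were at least 2-fold lower; over all 8261 genes 51.1% were below 0 and 4.12% at least 2-fold lower. A row of STMN4 (ENSDARG00000030106), at 2.20 RPKM in morphant and 3.45 RPKM in wild-type polysomal mRNA, passed the floor through the wild-type library alone. Its direction was therefore fixed. STMN2 itself, chosen for this difference, is 1 of the 3, and its other copy is another. The remaining one was a row of STMN1 (ENSDARG00000033655), the stathmin of dividing and immature cells, at -1.23. It had 12.2 RPKM in morphant and 29.2 RPKM in wild-type polysomes. A more abundant STMN1 row (ENSDARG00000004169), at 83.9 RPKM in morphant and 136 RPKM in wild-type polysomes, stood at -0.70. In total mRNA these STMN1 rows stood at -0.68 and -0.30 in the same order. STMN3 (ENSDARG00000038465), a Golgi-associated neuronal stathmin, stood at -0.99 in polysomal and -0.15 in total mRNA. In total mRNA none of the 7 was 2-fold different, where 0.675% of all genes were lower and 1.43% higher, and the median was -0.24.

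The transcript of cntn2 had the opposite distribution: it was in total mRNA and almost missing from polysomal mRNA in both conditions. Its level was 0.108 RPKM in morphant polysomal, 0.184 RPKM in wild-type polysomal, 1.69 RPKM in morphant total and 5.99 RPKM in wild-type total mRNA, from 8, 10, 134 and 566 reads. Wild-type total mRNA was the highest library, morphant total mRNA came next, and the polysomal libraries lay far below with overlapping counting ranges. Morphants over wild type gave a log2 ratio of -1.57 in total mRNA, with 15 of 12154 genes lower. On reads it was -1.83 (-2.11 to -1.56), a 3.56-fold lower level in morphants. At 1.69 RPKM in morphant total mRNA, cntn2 passed the floor of 3 RPKM through the wild-type library alone, which fixes its direction.

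In polysomal mRNA the read ratio of cntn2 was -0.80 (-2.35 to 0.69), from 8 and 10 reads, so a difference was not detectable at this depth; the interval holds both 0 and the ratio seen in total mRNA. Its association on reads, 1.03 (-0.34 to 2.40), was likewise undetermined. Polysomal mRNA was 17.5-fold lower than total mRNA in morphants (interval 8.65 to 41.4) and 35.8-fold lower in wild type (19.3 to 75.0).

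Of 7 contactin rows in the files, cntn1a (ENSDARG00000087843), an axonal contactin, was the other row to reach 3 RPKM. It shared the low polysomal level, at 0.401 RPKM in morphant and 0.431 RPKM in wild-type polysomal mRNA against 4.26 RPKM in morphant and 5.20 RPKM in wild-type total mRNA. Its total read ratio of morphant to wild type was -0.29 (-0.62 to 0.04), without the difference that cntn2 had. The other 5 rows, CNTN1, CNTN5, cntn3a.1, cntn3a.2 and cntn3b, stayed at or below 0.384 RPKM in every library.

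The count of these genes at 2-fold is fixed by how they were chosen. In polysomal mRNA the 2 above the floor were lower, where 4.12% of 8261 genes (340) were at least 2-fold lower and 1.76% (145) higher. That split turned to 206 lower and 302 higher with totals that leave out the 50 most abundant genes, which moved the median of all genes by 0.22; STMN2 stayed at -1.11 there. In total mRNA 1 of 2 above the floor was lower, where 0.675% of 12154 genes were lower and 1.43% higher. Over all genes the median log2 ratio was -0.01 in polysomal and -0.02 in total mRNA.

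**Figure D2:**
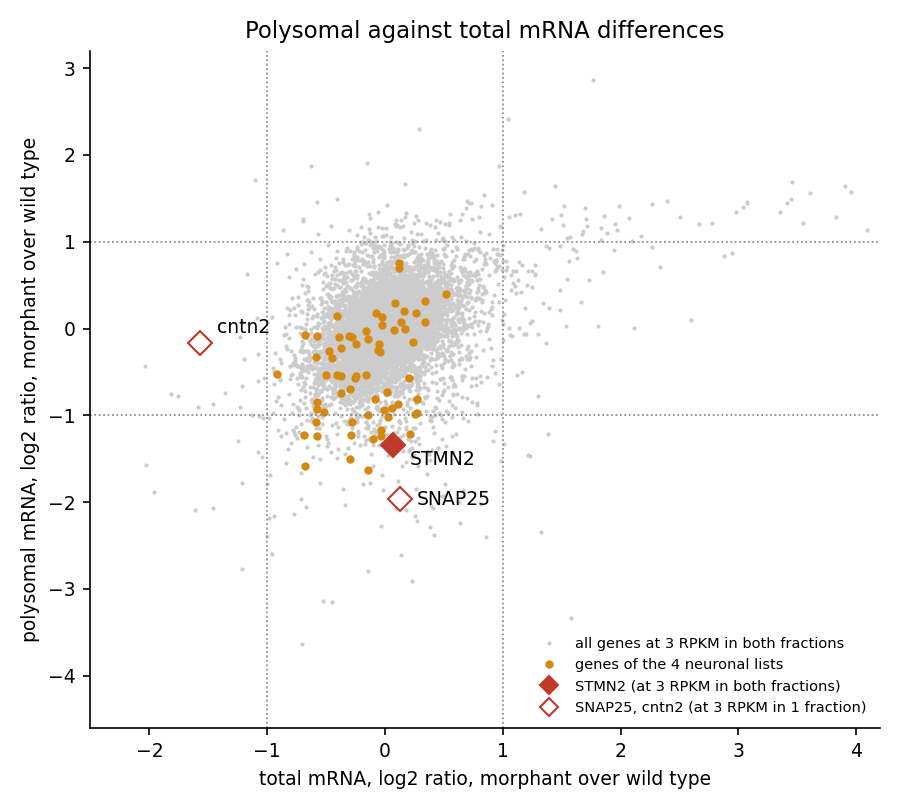
Log2 ratio of morphant to wild type in total mRNA (x axis) and in polysomal mRNA (y axis) for genes at 3 RPKM in both fractions (grey), genes of the 4 neuronal lists (orange) and SNAP25, STMN2 and cntn2 (diamonds, open where 1 fraction is below 3 RPKM). Dotted lines mark 2-fold; SNAP25 and STMN2 lie low on the polysomal axis near 0 in total mRNA, and cntn2 lies at -1.57 in total mRNA.

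Genes of the same processes were followed in lists put together with earlier results of these data known, so they are descriptions of the setting of SNAP25, STMN2 and cntn2. Whole embryos were used, so fewer neurons and less RNA per neuron cannot be told apart in any of them. Over 4 neuronal lists (vesicle release, microtubule and growth cone, axonal adhesion and guidance, transcription and RNA binding) without SNAP25, STMN2 and cntn2, 14 of 73 genes at the floor were lower by 2-fold or more in morphant polysomal mRNA and none higher, with a median of -0.53, where 4.12% of all genes were lower and 1.76% higher. Of the 14, the 4 genes INA, tuba2 (ENSDARG00000045014), RBFOX1 and SCRT2 passed the floor through the wild-type library alone, which fixes their direction. Counted with SNAP25 and STMN2, 7 of 19 vesicle-release and 5 of 23 microtubule and growth-cone genes did so. So did 4 of 26 transcription and RNA-binding genes and none of 7 adhesion and guidance genes. Through the morphant library alone passed 1 vesicle-release and 1 transcription and RNA-binding gene. The floor thus leans the median to the lower side. Without a floor, 162 of the 226 rows had a lower RPKM in morphants. Rows without reads in either library count as lower there, because 1 is added to the reads and the morphant polysomal library is deeper. The share over all genes without a floor was not computed, so nothing is read from that count. In total mRNA none of 104 was 2-fold different, with a median of -0.16. Over all genes 0.675% were lower and 1.43% higher there, so that count is near the share of all genes and nothing is read from it.

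The list that holds STMN2, of microtubule and growth-cone proteins, lay lowest in polysomal mRNA. Of its 47 rows 23 were above the floor, and 11 of these, STMN2 included, were at least 2-fold lower and none higher, at a median of -0.99, against 4.12% lower over all genes. Of the 23, 5 passed the floor through the wild-type library alone, 2 of them among the 11, and none through the morphant library alone. The floor fixes the direction of these 5 and leans the median to the lower side. Without a floor 37 of the 47 rows had a lower RPKM in morphants, a count in which any row without reads falls on the lower side. The share over all genes was not computed there either, so nothing is read from this count. Besides STMN2 its lowest genes were alpha-tubulins, building blocks of microtubules: tuba1b (ENSDARG00000045367) at -1.58, tuba1c (ENSDARG00000055216) at -1.51 and TUBA1A (ENSDARG00000001889) at -1.27, the last with 169 RPKM in morphant and 408 RPKM in wild-type polysomes. Alpha-tubulin copies resemble each other in sequence, so their split is uncertain. The beta-tubulin tubb5 (ENSDARG00000037997) stood at -1.23, the neurofilament-type protein INA (ENSDARG00000053248) at -1.22 and GNG3 (ENSDARG00000009553), a G-protein subunit of neurons, at -1.17. In total mRNA the list's median was -0.10 over 25 genes. None of them was 2-fold different, where 0.675% of all genes were lower and 1.43% higher. Farthest from 0 there were STMN1 (ENSDARG00000033655) at -0.68, tuba1b at -0.68, tubb5 at -0.58 and DPYSL5 (ENSDARG00000011141) at -0.47. The lower level of STMN1, tuba1b and tubb5 was thus not confined to polysomal mRNA.

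In polysome association the same list had 7 of 22 genes lower by 2-fold or more and none higher, with a median of -0.88, where 3.07% of 7546 genes (232) were lower and 1.62% (122) higher. With totals that leave out the 50 most abundant genes the counts over all genes were 154 lower and 236 higher. INA at -1.43, STMN2 at -1.41, basp1 (ENSDARG00000053358), a growth-cone membrane protein, at -1.25 and tuba1c at -1.21 were the farthest from 0. INA and tuba2, both among the 7, reached 3 RPKM on polysomes in wild type alone, which leans their values to the lower side.

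**Figure D3:**
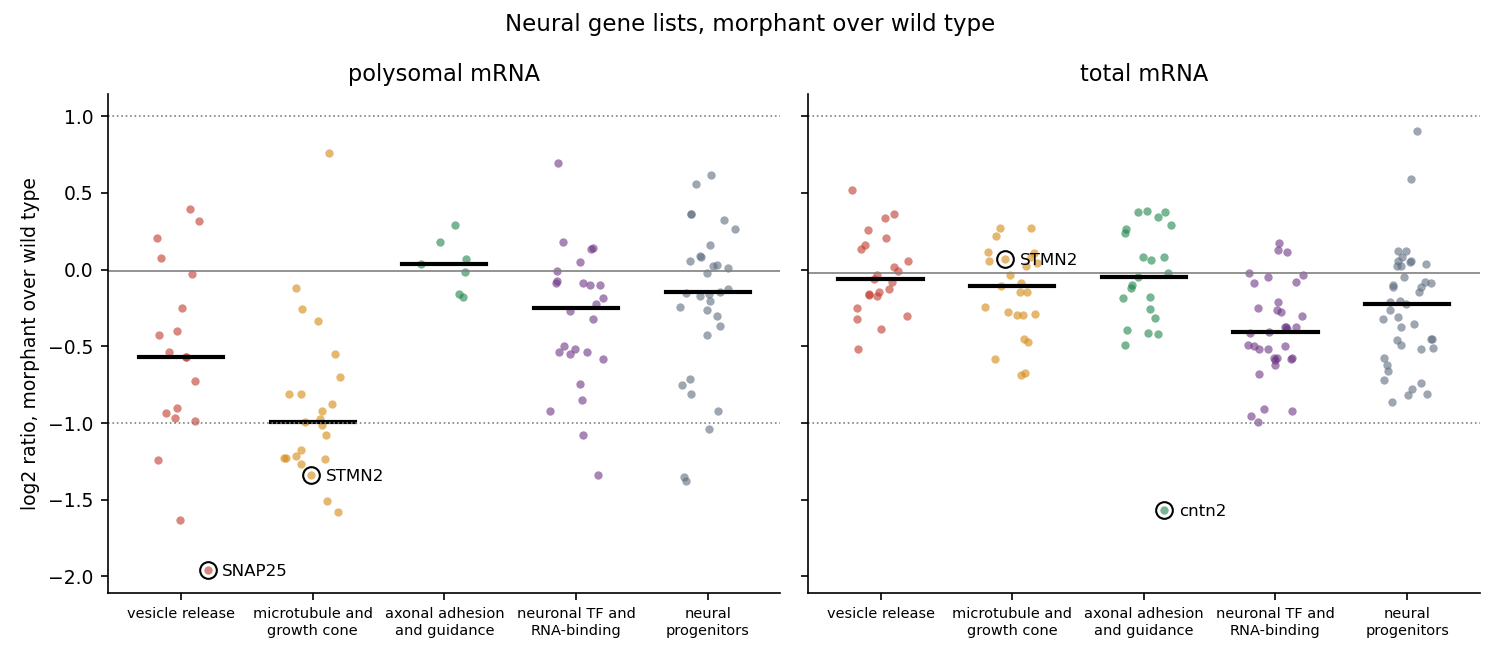
Log2 ratio of morphant to wild type for the genes of 5 neural lists above the floor in polysomal mRNA (left) and total mRNA (right); black bars are list medians, the grey line is the median of all genes, dotted lines mark 2-fold, and SNAP25, STMN2 and cntn2 are ringed. The microtubule and growth-cone list has the lowest polysomal median, at -0.99. The single gene past 2-fold in total mRNA is cntn2, which was chosen for this difference.

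Vesicle-release genes, the setting of SNAP25, held 63 rows, of which 19 were above the floor in polysomal mRNA. Of these 19, 7 passed the floor through the wild-type library alone and 1 through the morphant library alone, which fixes their direction. The median of the 19 was -0.57, which the floor leans to the lower side. Among them 3 were at least 2-fold lower and none higher, where 4.12% of all genes were lower and 1.76% higher. SNAP25 is 1 of the 3; it was chosen for this difference and was above the floor through the wild-type library alone. After SNAP25 came cplx2a (ENSDARG00000018997), a complexin that binds the assembled SNARE complex, at -1.63, with 4.09 RPKM in morphant and 13.7 RPKM in wild-type polysomal mRNA and 3.10 RPKM in morphant and 3.48 RPKM in wild-type total mRNA. NAPG (ENSDARG00000006617), a SNAP adaptor of the disassembly of SNARE complexes, stood at -1.24, and SYT11 (ENSDARG00000057913), a synaptotagmin, at -0.99. A row with the symbol CPLX2 (ENSDARG00000061918) differed less than cplx2a, at -0.53 in polysomal mRNA and -0.37 in association. Another NAPG row (ENSDARG00000043012) was below the floor in polysomal mRNA, at 0.194 RPKM in morphants and 0.135 RPKM in wild type. In total mRNA none of 23 genes was 2-fold different, where 0.675% of all genes were lower and 1.43% higher, and the median was -0.06. In association 3 of 13 genes were past 2-fold on the lower side, cplx2a at -1.49, SYT11 at -1.24 and NAPG at -1.21, and none higher. Over all genes 3.07% were lower and 1.62% higher in association. SYT11, at 2.83 RPKM in morphant and 6.11 RPKM in wild-type polysomes, reached the polysomal floor in wild type alone, which leans its value to the lower side.

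A SNARE partner of SNAP25 had another distribution over the fractions, low in polysomal mRNA as cntn2 was; it is named here after its values were seen. The row vamp2 (ENSDARG00000056877), for synaptobrevin of the vesicle, stood at 0.203 RPKM in morphant and 0.495 RPKM in wild-type polysomal mRNA, against 4.19 RPKM in morphant and 5.27 RPKM in wild-type total mRNA. It did not pass 2-fold between morphants and wild type in total mRNA, with a log2 ratio of -0.30.

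Axonal adhesion and guidance genes, the setting of cntn2, differed little as a group between morphants and wild type. In total mRNA 23 of 53 rows were above the floor, at a median of -0.05. Of these, cntn2 was the single gene 2-fold lower and none was higher, where 0.675% of all genes were lower and 1.43% higher. It was chosen for this difference and passed the floor through the wild-type library alone. The next farthest from 0 were ntn2 (ENSDARG00000076748), a netrin guidance cue, at -0.49, the guidance ligand SLIT1 (ENSDARG00000044954) at -0.42 and the neural adhesion gene NCAM1 (ENSDARG00000056181) at -0.41. In polysomal mRNA 7 rows were above the floor, all within 2-fold, from ALCAM (ENSDARG00000026531) at -0.18 to ROBO3 (ENSDARG00000005645), an axon guidance receptor, at 0.29. Their association median was -0.10 over the same number of genes, or 0.09 with totals that leave out the 50 most abundant genes, and none was 2-fold different.

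Neuronal transcription and RNA-binding factors were on the lower side in total mRNA by less than 2-fold, with a median of -0.41. Below 0 were 32 of 35 genes, against 52.4% of 12154 genes. Of the 35, 4 passed the floor through the wild-type library alone and 1 through the morphant library alone, which fixes their direction. DLX1 (ENSDARG00000013125) at -0.996, ONECUT1 (ENSDARG00000007982) at -0.96, NEUROD4 (ENSDARG00000003469) at -0.92 and NEUROD1 (ENSDARG00000019566) at -0.91 were the lowest, all transcription factors of neurons. In polysomal mRNA the median was -0.25 over 26 genes, and the splicing regulator RBFOX1 (ENSDARG00000014746) at -1.34 and the repressor SCRT2 (ENSDARG00000056175) at -1.08 were the 2 past 2-fold, both above the floor through the wild-type library alone. With these 2, 4 of the 26 passed it so, and 1 passed it through the morphant library alone. The association median of the list was 0.15 over 22 genes, none past 2-fold. Over all genes 4.12% were at least 2-fold lower in polysomal mRNA, 0.675% in total mRNA and 3.07% in association, which holds for the next list too. Neural progenitor genes had medians of -0.15 in polysomal (32 genes, 3 at least 2-fold lower; 0.08 with totals that leave out the 50 most abundant genes), -0.22 in total mRNA (41 genes, none past 2-fold) and 0.13 in association (32 genes, 1 at least 2-fold lower). The progenitor and radial-glia genes VIM (ENSDARG00000010008) at -1.38 and FABP7 (ENSDARG00000007697) at -1.35 were the lowest in polysomal mRNA. Another FABP7 row (ENSDARG00000034650) stood at -0.16 in polysomal and 0.59 in total mRNA.

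Within each condition, polysomal over total mRNA separated the 3 genes. These ratios share libraries with the comparisons above, wild-type polysomal mRNA for SNAP25 and STMN2 above all, and are set beside them as values. For SNAP25 the read ratio was -0.14 (-0.80 to 0.52) in morphants and 2.40 (1.91 to 2.92) in wild type. For STMN2 it was 0.27 (0.06 to 0.48) in morphants and 1.75 (1.58 to 1.94) in wild type, and for cntn2 -4.13 (-5.37 to -3.11) in morphants and -5.16 (-6.23 to -4.27) in wild type. Over all genes the median log2 ratio was -0.70 in morphants, with 6.81% of 11951 genes at least 2-fold higher and 41.1% lower on polysomes. In wild type it was -0.71, with 10.5% of 12072 genes higher and 42.7% lower. SNAP25 in wild type stood at 1.99, with 282 genes higher, STMN2 at 1.65, with 529 higher, and cntn2 at -3.25, with 1079 genes lower. Scaling bears on these: upper-quartile scaling moved the median of all genes by 0.46 in morphants and 0.43 in wild type, and totals without the 50 most abundant genes moved it by -0.23 and -0.41.

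**Figure D4:**
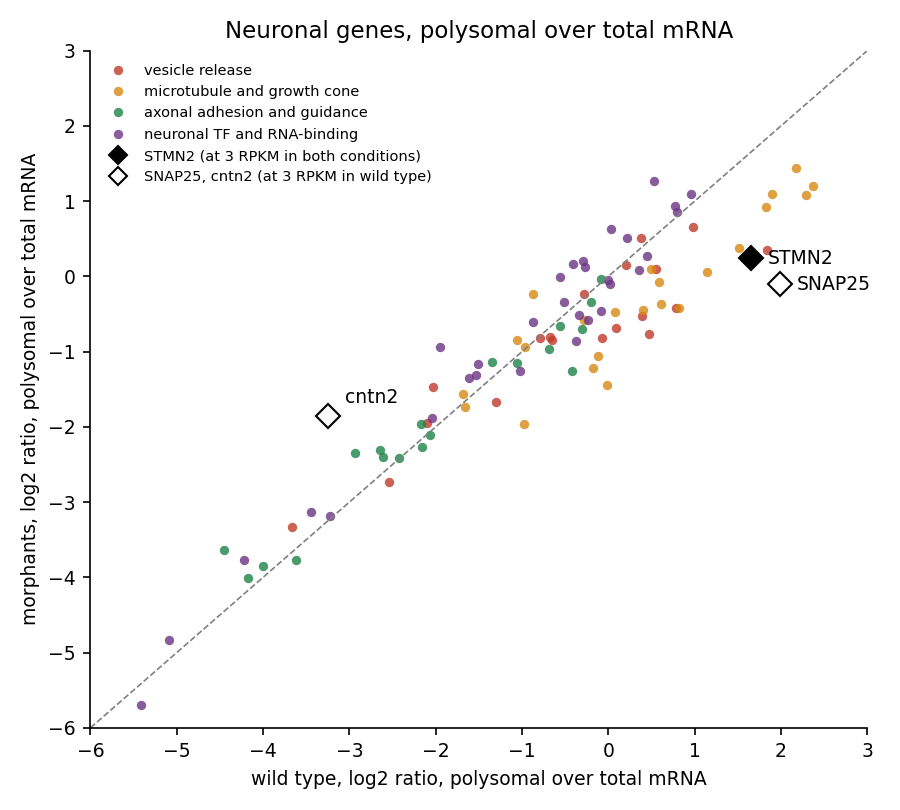
Log2 ratio of polysomal over total mRNA in wild type (x axis) and in morphants (y axis) for genes of the 4 neuronal lists above the floor in both conditions, and for SNAP25, STMN2 and cntn2 (diamonds, open where morphants are below 3 RPKM). The dashed line marks equal ratios; STMN2 lies below it at 0.25 in morphants and 1.65 in wild type, and axonal adhesion genes lie at or below 0 on both axes.

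Many axonal adhesion and guidance genes were low in polysomal mRNA, as cntn2 was, but not all. In morphants 15 of 20 genes were at least 2-fold lower in polysomal than in total mRNA and none higher, with a median of -2.03. In wild type 16 of 22 were lower, cntn2 included, and none higher, with a median of -2.30. Of these, 13 of the 15 and 14 of the 16 passed the floor through total mRNA alone, which fixes their direction. At a floor of 12 RPKM the list median was -0.96 in morphants and -0.63 in wild type. The median of all genes was not computed at that floor. The adhesion genes alcamb (ENSDARG00000058538), at -0.03 in morphants and -0.09 in wild type, and ALCAM, at -0.33 in morphants and -0.21 in wild type, were close to equal between fractions; both were picked after their values were seen. Without a floor, 52 of 53 rows had a lower RPKM in polysomal mRNA in morphants and 48 of 53 in wild type. Depth alone sets the side of rows without reads, lower on polysomes in morphants and higher in wild type. These counts can therefore not be set against each other, and the share over all genes was not computed. Microtubule and growth-cone genes lay on both sides. In morphants 4 of 25 were at least 2-fold higher and 7 lower, where 6.81% of all genes were higher and 41.1% lower. In wild type 8 of 24 were higher and 3 lower, against 10.5% and 42.7% of all genes. Of the lower genes, 6 of the 7 in morphants and 1 of the 3 in wild type passed the floor through total mRNA alone. STMN4 (ENSDARG00000043932), higher in wild type, passed it through polysomal mRNA alone. The floor fixes the direction of such genes. TUBA1A, at 1.20 in morphants and 2.37 in wild type, was on the polysomal side in both.

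The profile of SNAP25 and STMN2, with wild-type polysomal mRNA at least 2-fold above each of the other libraries, was held by 7 of the other 111 neuronal-list genes that reached 3 RPKM in a library and by 208 of 12590 genes (1.65%). The 7 were cplx2a, tuba1b, tuba1c, TUBA1A, GNG3, the other STMN2 row and the vesicle GTPase RAB3C (ENSDARG00000014462). RAB3C, like SNAP25, reached 3 RPKM in wild-type polysomal mRNA alone, so the floor itself favoured this profile for it. How many of the 208 did so was not counted. Lens and muscle markers were highest in the same library, as given above, and their part in the result was not tested. Whether the pools of embryos matched in stage within the labelled age was not analysed here. Total libraries at least 10-fold above both polysomal libraries occurred in 13 of 114 neuronal-list genes and in 1581 of 12590 genes (12.6%). These included ELAVL3 (ENSDARG00000014420), an RNA-binding protein of early neurons, with 0.610 RPKM in morphant and 0.818 RPKM in wild-type polysomal mRNA against 31.0 RPKM in morphant and 44.5 RPKM in wild-type total mRNA. For cntn2 the lower total value, 1.69 RPKM, was under 10 times the higher polysomal value, so it was not among them.

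Likeness over all genes was measured as the Euclidean distance between log2 profiles over the 4 libraries, each centred on its own mean, among 10002 other genes with a symbol at 3 RPKM in a library. SNAP25 and STMN2 were 0.44 apart, and cntn2 was 3.91 from SNAP25 and 3.78 from STMN2. The 5 genes nearest SNAP25 were both TYRP1 rows (ENSDARG00000029204 at 0.17 and ENSDARG00000056151 at 0.22), for melanin synthesis, dhrs12la (0.19), zgc:113276 (0.19) and the troponin gene tnnt2e (0.22). The first TYRP1 row, for instance, had 6.91 RPKM in morphant and 32.7 RPKM in wild-type polysomal mRNA and 8.17 RPKM in morphant and 6.76 RPKM in wild-type total mRNA. Nearest STMN2 were the ribosomal protein gene RPL5 (ENSDARG00000020197, 0.10), the creatine kinase gene CKB (ENSDARG00000043257, 0.11), GNG3 (0.14), DMRT3 (ENSDARG00000035290, 0.21), a transcription factor of spinal interneurons in mouse, and CAPN3 (ENSDARG00000043035, 0.22), a calpain protease. Nearest cntn2, at wider distances of 0.36 to 0.48, were si:ch211-197h24.8, angptl2a, epdl2, MGAT3 and NHERF4. Those nearest SNAP25 and STMN2 included pigment, muscle, ribosomal and neuronal genes. Among them dhrs12la, zgc:113276, tnnt2e and CAPN3 reached 3 RPKM in wild-type polysomal mRNA alone, so the floor itself favoured this profile for them. Near cntn2, si:ch211-197h24.8 and NHERF4 reached it in wild-type total mRNA alone.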

How the data were processed

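Polysomal and total polyA mRNA of whole embryos was sequenced as single reads of 36 bases on an Illumina Genome Analyzer IIx, per the labels, with RNA extracted by Trizol. The authors deposited RPKM values, 1 per gene and library; per the submitters' processing notes the genome build was Zv9. Aligner, counting tool and annotation release: not given in the sources used here. Coordinates and sequences were not used here. Symbols were joined by identifier for 20499 of 32313 genes; names in capitals are printed as they stand.

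Low RPKM values are whole multiples of 1 step. The common ratio of genes without reads gave relative depth, and whole gene lengths gave absolute depth (99.9% of 4998 such genes had a whole length). The smallest length that made all 4 values whole, within 0.002 plus 6e-06 of the value, gave reads for 31235 genes (96.7%). Recovery was tested on simulated data made with the same steps from recovered genes, which cannot check the steps themselves. Exact Clopper-Pearson intervals were used for pairs and a normal approximation for association.

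Groups hold 1 library each, so no test was run. Members and gene lists were chosen with earlier results of these data known. The genes to name were the 3 genes, other rows of their families, up to 4 genes a list and comparison farthest from 0, and the 5 nearest profiles; not all are printed. Alternatives were 3 other scalings, pseudocounts of 0.1 and 1, reads, floors of 0 or 12 RPKM, calls at 1.5-fold or 4-fold, and list means. Tables were read with pandas 2.3.3 and NumPy 2.4.6 under Python 3.11.15, intervals came from SciPy 1.17.1, and figures were drawn with Matplotlib 3.10.9.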

Additional observations from a re-analysis of the deposited data

How the results depend on the processing

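No paired analysis was possible because each group holds 1 library, and for the same reason no library could be left out. Of 90 alternative values of SNAP25, STMN2 and cntn2, 81 stayed within the counting interval around the reported value, and none that was past 2-fold changed sign; SNAP25 in morphant polysomal over total mRNA, reported as -0.10, was 0.02 with median-of-ratios and 0.26 with upper-quartile scaling. Totals without the 50 most abundant genes gave STMN2 -1.11 in polysomal mRNA, and for polysomal over total mRNA 0.025 in morphants and 1.23 in wild type; upper-quartile scaling gave 0.70 and 2.09. For cntn2, polysomal over total mRNA was -3.11 in morphants and -4.42 in wild type with a pseudocount of 0.1, and -4.13 and -5.16 on reads, since added RPKM understates low values. Of 175 alternative list medians 11 changed sign, all from medians within 2-fold.

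Counts of genes over the whole table moved as follows. In polysomal mRNA, genes higher and lower numbered 302 and 206 with totals without the 50 most abundant genes (median of all genes 0.21), 280 and 549 with no floor, 58 and 161 at a floor of 12 RPKM, 657 and 905 at 1.5-fold, and 3 and 76 at 4-fold. In total mRNA they numbered 319 and 149 with no floor, 83 and 29 at 12 RPKM, 678 and 519 at 1.5-fold, and 39 and 7 at 4-fold. In association they numbered 236 and 154 with totals without the 50 most abundant genes, 494 and 932 with no floor, 23 and 94 at 12 RPKM, 537 and 639 at 1.5-fold, and 5 and 29 at 4-fold. For polysomal over total mRNA, genes higher numbered 1828 in morphants and 2214 in wild type with upper-quartile scaling, 517 and 713 with totals without the 50 most abundant genes, 1647 and 2087 at 1.5-fold, and 91 and 282 at 4-fold. Genes lower numbered 7949 in morphants and 8097 in wild type with no floor, 1591 and 1767 at 12 RPKM, and 2609 and 2968 at 4-fold.

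The cause of the shifts between scalings was not tested. Depth limits cntn2 in polysomal mRNA, with 8 reads in morphants and 10 in wild type, and SNAP25 in total mRNA, with 42 and 44.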
